A study of Epimedium pubescens with 12 samples.

Results

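Leaves of the medicinal herb Epimedium pubescens (barberry family) were compared by small RNA sequencing after 90 days (90d) of phosphorus deficiency. Every library labelled 90d was taken, which gives 6 of the 12 libraries of the series. The 90d -P group was watered with adjusted Hoagland solution without inorganic phosphate (0 mmol/L), the 90d +P group with the same kind of solution at 1 mmol/L, and each group has 3 libraries with replicates A, B and C. All plants were seedlings from field cultivation bases, kept in sand culture under the same light and temperature, and the treatment was replicated 3 times with several seedlings per replication. How many plants gave leaves for each RNA sample is not stated in the sources used here. Besides phosphate, the -P recipe held more potassium nitrate and potassium sulphate and less sodium nitrate than the +P recipe, so the effect of phosphate and those of the other salts cannot be told apart. The table listed 220 miRNAs, of which 22 carried the prefix aqc of Aquilegia, a related genus (called known here), and 198 carried a running number (novel_N, called predicted). It held no mRNA, so the leaf label was not checked against leaf marker genes.

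MicroRNAs are small RNAs that guide an Argonaute protein to messenger RNAs with a matching site, which in plants are mostly cleaved. In Arabidopsis, leaves short of phosphate make miR399, which travels through the phloem to the root and lowers PHO2, an enzyme that marks phosphate transport proteins for breakdown. miR395 answers to sulphate shortage and miR398 to copper shortage in the same species. Predicted miRNAs have no known role here.

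Mature miRNA sequences were not used here. The sequences at hand were the forward primers that the study designed for its qRT-PCR assays, and those of novel_286 and novel_269 are shown because the levels of these miRNAs did not overlap between the groups at 90d. Both are written in lower case because the stretch that matches the miRNA was not given, and neither is a mature sequence.
novel_286: gcttgggactcaagctttgtttg
novel_269: cgcgctttctttgcaggttttgat

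Library totals for replicates A, B and C were 1444541, 1317204 and 1022835 counts in 90d -P and 1201807, 1209949 and 907452 in 90d +P, so the deepest library held 1.59 times the counts of the shallowest. Between 160 and 165 miRNAs had at least 1 count in a library. Levels are given as TPM, which here is counts scaled to a common library total of miRNA counts, and a count of 0 allows up to 3.31 TPM in the shallowest library when 3 counts are taken as the limit. Over the 137 miRNAs with enough counts to be tested, log2 levels had a Pearson r, taken across miRNAs, of 0.828 to 0.966 within groups and 0.809 to 0.913 between them, and these ranges overlapped. The highest value between groups joined 90d -P B and 90d +P C, and it was above both values that joined 90d +P C to its own group (0.869 with A and 0.828 with B). aqc-miR166e, the most abundant miRNA, held 64.9%, 52.9% and 58.9% of counts in the -P libraries and 73.1%, 70.8% and 47.7% in the +P libraries, so 90d -P B and 90d +P C were also lowest in their groups by this measure. For several miRNAs described below, the log2 fold change without 1 library is given as well. Other shifts of similar size are not listed.

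Over the full table the clearest difference was a small group of miRNAs that stood far higher under -P. Tested in edgeR by quasi-likelihood, with p-values adjusted over 137 miRNAs by the Benjamini-Hochberg method, 3 were higher under -P with an adjusted p under 0.05 (2.19% of those tested), namely aqc-miR399, novel_36 and novel_73. The lower direction had 0 such miRNAs (0%) with edgeR's older method, where 5 had an unadjusted p under 0.05. It had 3 with edgeR's newer method (novel_105, novel_79 and novel_106, the last named after its values were seen), 2 with DESeq2 on 12 libraries, 3 with DESeq2 on 6 libraries and 0 with limma. The study selected miRNAs by an unadjusted p under 0.05 and a log2 fold change of 1 or more in either direction. By this criterion, the unadjusted rule, 11 miRNAs passed (8.03%), with 6 higher (4.38%) and 5 lower (3.65%). Besides the 3 named, novel_51, novel_61 and novel_56 were higher, and novel_253, novel_105, novel_57, novel_245 and novel_184 were lower. Of these 11, aqc-miR399 was the only known miRNA. With DESeq2, the study's tool, 20 miRNAs passed the rule on 12 libraries and 23 on 6 libraries. The study's own list for the same comparison was longer than any of these. It held 3 known miRNAs, with miR399 among those higher, and more lower than higher miRNAs. Why it differs from the 11 found here was not tested.

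**Figure D1:**
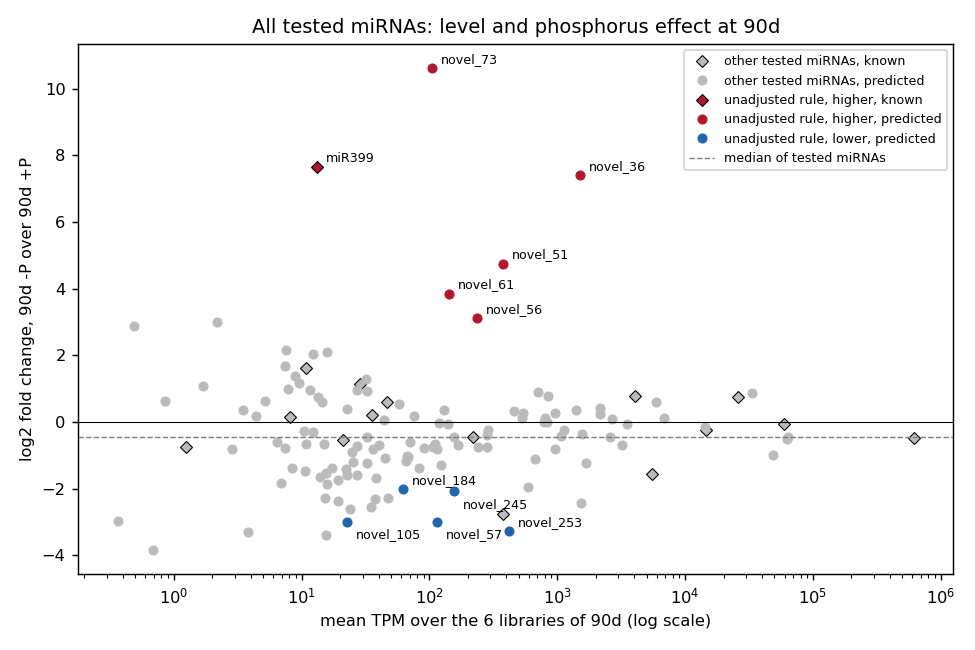
Each point is 1 of the 137 tested miRNAs. The x axis is the mean TPM over the 6 libraries of 90d (log scale) and the y axis the log2 fold change of 90d -P over 90d +P, with diamonds for known and circles for predicted miRNAs, and colour for the 6 higher and 5 lower miRNAs of the unadjusted rule. The 6 higher miRNAs sit at log2 fold changes of 3.11 and above, apart from the bulk, while the 5 lower ones sit between -3.29 and -2.02 among other points.

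aqc-miR399, the family that answers to phosphate shortage in Arabidopsis, was counted 33, 27 and 36 times in 90d -P A, B and C and 0 times in each 90d +P library. The 3 -P libraries lay close together, at 22.8, 20.5 and 35.2 TPM, and all were above the +P libraries. Taking 3 counts over the pooled +P total as the limit, aqc-miR399 was at least 28.1-fold higher under -P. The edgeR fit, which does not use this bound, gave an adjusted p of 0.0243. aqc-miR399 had enough counts to be tested only through -P libraries, mainly those of 90d. Whether fewer cells made it under +P or each cell made less cannot be told apart in whole leaves. At this depth its level under +P could be stated only as at most 0.904 TPM in the pooled group. It was the only member of the list of phosphate starvation families (miR399, miR827, miR2111 and miR778) in the table, so the list gave 1 higher of 1 tested, beside 4.38% of all tested miRNAs.

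novel_73 was counted 451, 16 and 306 times in 90d -P A, B and C and 0 times in every 90d +P library. In TPM it was at 312, 12.1 and 299, so all -P libraries were above all +P libraries, and replicate B lay far below A and C. The pooled bound was at least 226-fold higher under -P, and the adjusted p in the edgeR fit was 0.0278. novel_36 was at 3596, 141 and 5240 TPM in 90d -P A, B and C and at 12.5, 25.6 and 2.20 TPM in 90d +P. Again the groups did not overlap and replicate B was the low -P library. On the log2 scale the difference was 7.40 (SE 1.57, adjusted p = 0.0243), and the mean of A and C was 31.3 times the level of B.

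novel_51 followed the same order among libraries, at 849, 120 and 1232 TPM in 90d -P A, B and C and 10.8, 39.7 and 12.1 TPM in 90d +P. The lowest -P library was 3.02 times the highest +P library. The log2 fold change was 4.75 (SE 1.24) and its adjusted p of 0.0534 just missed the threshold. novel_61 was at 325, 151 and 339 TPM under -P and 4.99, 13.2 and 24.2 TPM under +P. Here replicate B was less far from A and C, and the lowest -P library was 6.23 times the highest +P library (log2 fold change 3.85, SE 0.99, adjusted p = 0.0534). novel_56 had the most even -P levels of these predicted miRNAs, at 384, 392 and 515 TPM against 8.32, 47.9 and 58.4 TPM under +P. The lowest -P library was 6.57 times the highest +P library, and the log2 fold change was 3.11 (SE 0.95, adjusted p = 0.135).

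**Figure D2:**
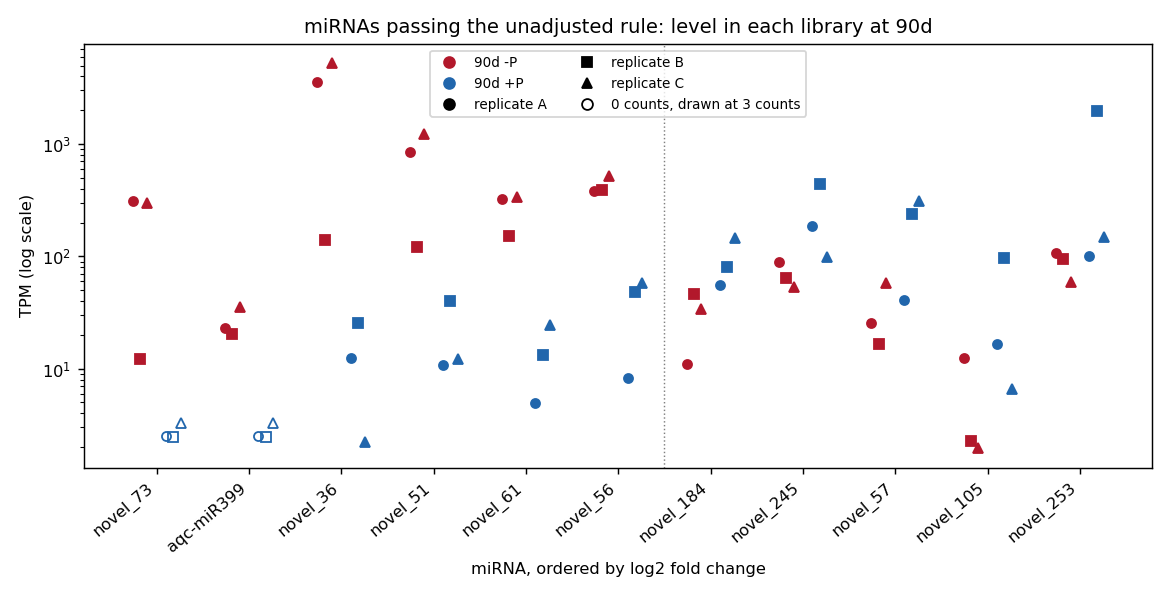
Level in TPM (y axis, log scale) of the 11 miRNAs of the unadjusted rule in each library of 90d, red for -P and blue for +P, with a symbol for each replicate and open symbols for 0 counts, drawn at 3 counts. Left of the dotted line all 6 higher miRNAs have every red point above every blue point, and the square of replicate B is the lowest red point for novel_73, novel_36, novel_51 and novel_61.

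The 6 higher miRNAs passed the unadjusted rule in every alternative in which they were tested, 17 for aqc-miR399 and 18 for each of the others, including all 6 fits that left out 1 library. The adjusted calls were less stable. Leaving out 90d -P A, 90d -P C or any 90d +P library ended all 3 of them, as did edgeR on the 90d libraries alone and the replicate block. The stricter filter ended those of novel_36 and novel_73 (adjusted p = 0.0538 each in edgeR) and left aqc-miR399 untested. Leaving out 90d -P B, the library with low novel_36, novel_51 and novel_73, gave 4. With both 90d -P B and 90d +P C left out, an alternative chosen after seeing the data, novel_36 and novel_73 were called, and aqc-miR399, at a log2 fold change of 7.81, was not.

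Lower miRNAs under -P were less marked. novel_253 was at 107, 95.7 and 59.6 TPM in 90d -P A, B and C and at 101, 1984 and 148 TPM in 90d +P. Only 90d +P B stood far from the rest, at 16.0 times the mean of the other +P libraries. In TPM the groups overlapped, but after TMM scaling (explained below), the scaling of the fit, they did not. The log2 fold change was -3.29 (SE 1.10, adjusted p = 0.195), and without 90d +P B it was -0.92. novel_105 showed the same shape at a lower level, with 18, 3 and 2 counts under -P against 20, 117 and 6 under +P. Its groups overlapped, and the log2 fold change of -3.01 (SE 1.30, adjusted p = 0.482) became -1.65 without 90d +P B and -4.52 without 90d -P A. With the newer edgeR method it was called, at an adjusted p of 0.0377.

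novel_57 was at 25.6, 16.7 and 57.7 TPM under -P and 40.8, 236 and 311 TPM under +P. In TPM 90d +P A fell below 90d -P C, but after TMM scaling the groups did not overlap. Its log2 fold change was -2.99 (SE 1.18, adjusted p = 0.421). novel_245 was at 89.3, 64.5 and 53.8 TPM under -P and 186, 439 and 98.1 TPM under +P, with no overlap, and novel_184 at 11.1, 46.3 and 34.2 TPM under -P and 55.7, 80.2 and 145 TPM under +P, also with no overlap. The log2 fold changes were -2.09 (SE 0.94) and -2.02 (SE 0.90), each with an adjusted p of 0.482. Each of the 5 lower miRNAs kept its direction in every alternative, but the number of alternatives in which it passed the unadjusted rule was 14 of 18 for novel_253, 10 of 17 for novel_105, 8 of 18 for novel_57, 10 of 18 for novel_245 and 7 of 18 for novel_184. Without 90d -P C none of the 5 passed, and the rule gave 6 miRNAs in all, against 17 without 90d +P C.

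novel_79 and novel_286, which the study pairs with target genes at 90d, did not pass the unadjusted rule in the main fit. The study also assayed selected miRNAs and targets by qRT-PCR. It reported opposite changes in the same directions as its sequencing, and those assays were not used here. novel_79 was at 16.6, 22.0 and 27.4 TPM under -P and 39.1, 62.8 and 61.7 TPM under +P. All -P libraries were below all +P libraries, and the log2 fold change was -1.70 (95% interval -3.43 to 0.04, adjusted p = 0.482). The adjusted p was 0.0387 by DESeq2 on 12 libraries and 0.0439 by newer edgeR, and 0.0503 by DESeq2 on 6 libraries, and it passed the unadjusted rule in each of these fits. novel_286, whose primer is printed above, had 8, 6 and 10 counts under -P and 53, 21 and 9 under +P. Scaled to library size the groups just failed to overlap, at 9.78 TPM in 90d -P C and 9.92 TPM in 90d +P C, and the log2 fold change was -2.28 (95% interval -5.06 to 0.51, adjusted p = 0.594). novel_286 passed the unadjusted rule with DESeq2 on 6 libraries (unadjusted p = 0.0130), edgeR on 6 libraries (0.0178) and newer edgeR (0.0203), but not with DESeq2 on 12 libraries (0.0974). Its log2 fold change was -1.39 without 90d +P A.

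How many miRNAs leaned each way depended on scaling. With TMM scaling, which corrects library sizes by a trimmed mean of log ratios, 53 tested miRNAs had a positive and 84 a negative log2 fold change, and the median was -0.44. Scaled by library totals alone, the median was -0.02, a shift of 0.42, and the unadjusted rule then gave 11 higher and 2 lower miRNAs. DESeq2 on 12 libraries gave 6 and 14, edgeR restricted to the 90d libraries 6 and 15, its newer method also 6 and 15, and limma 13 and 0. The 6 higher miRNAs named above were in each of these counts.

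**Figure D3:**
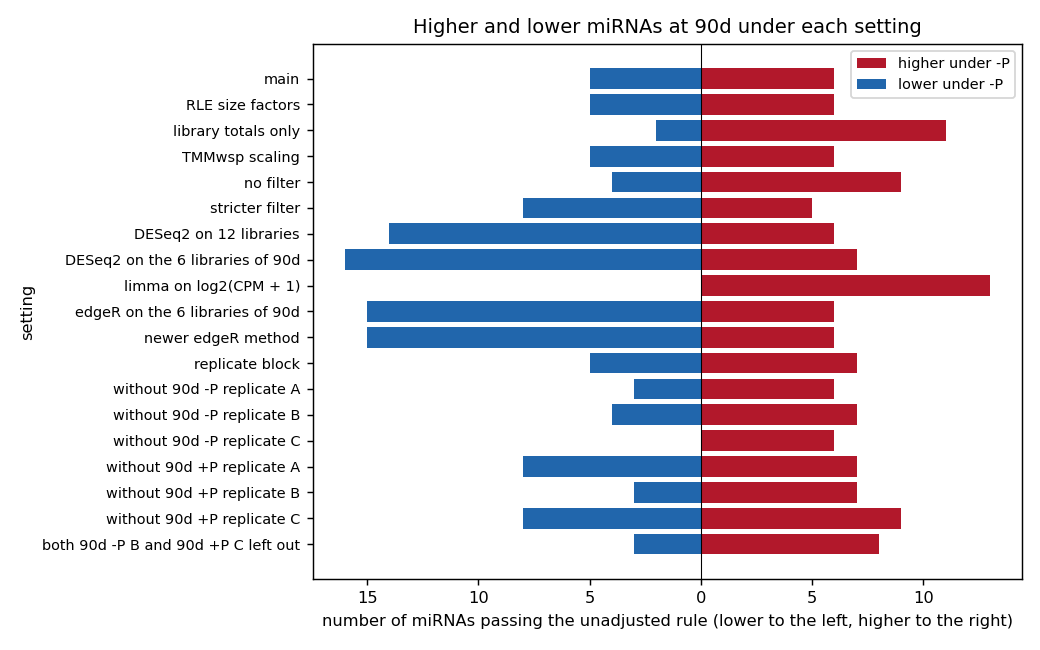
Number of miRNAs that passed the unadjusted rule (x axis) in each setting (y axis), higher under -P to the right in red and lower to the left in blue. The higher count stays between 5 and 13, and the lower count ranges from 0 to 16.

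Precision was limited by the spread between replicates. The SE of the log2 fold change had a median of 1.02 (0.449 to 2.51), and the biological coefficient of variation was 86.5%. Split by mean level, the median SE was 1.21 in the 46 lowest miRNAs, 0.99 in the 45 in the middle and 0.75 in the 46 highest. Fitted log2 fold changes were 1 or more for 18 miRNAs and -1 or less for 41, which is 59 together, so most changes of that size were within the error.

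A wider set had groups that did not overlap. After TMM scaling, all -P libraries were above all +P libraries for 18 miRNAs (13.1%) and below them for another 18 (13.1%), and with TPM these counts were 22 and 9. Among the predicted miRNAs, the largest fold changes of those higher, beyond the miRNAs above, belonged to novel_94, novel_178, novel_269, novel_86 and novel_242. novel_94 had 12, 12 and 22 counts under -P and 0, 1 and 5 under +P (log2 fold change 2.16, SE 1.32). novel_178 was at 27.0, 18.2 and 34.2 TPM under -P and 0.832, 14.1 and 0 TPM under +P, with 90d +P B close to the -P range (log2 fold change 2.10, 95% interval -0.47 to 4.67). Without 90d +P B its log2 fold change was 5.08, and that of novel_94 was 4.27 without 90d +P C, neither with an adjusted p under 0.05 in edgeR. The lowest values with 1 library left out were 1.52 for novel_178 (90d +P C) and 1.58 for novel_94 (90d +P A).

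novel_269, whose primer is printed above, had 19, 16 and 11 counts under -P and 1, 7 and 2 under +P. Its levels were even under -P, at 13.2, 12.1 and 10.8 TPM, against 0.832, 5.79 and 2.20 TPM under +P. The log2 fold change was 1.69 (SE 1.02, adjusted p = 0.594), or 2.59 without 90d +P B and 1.17 without 90d +P A. novel_86 had a mean of 16.9 TPM under -P (SD 2.57, n = 3) and 6.36 TPM under +P (SD 2.93, n = 3), and novel_242 had 46.7 TPM (SD 17.2, n = 3) and 18.8 TPM (SD 3.79, n = 3), with log2 fold changes of 0.97 and 0.93. These were 0.58 for novel_86 without 90d +P B and 0.59 for novel_242 without 90d -P B. On the lower side, novel_211, novel_241, novel_279, novel_194 and novel_71 had log2 fold changes from -1.87 to -1.30, and none passed the test. In TPM the groups of novel_279 and novel_194 overlapped. Among them novel_241 had the most even +P levels, at 22.5, 25.6 and 22.0 TPM against 13.8, 12.9 and 6.84 TPM under -P, and its log2 fold change of -1.39 was -0.78 without 90d -P C. novel_211 was led by 90d +P A, at 43.3 TPM against 11.6 and 14.3 TPM in the other +P libraries and 6.83 to 10.4 TPM under -P, and its log2 fold change of -1.87 was -1.06 without that library.

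Presence against absence was read from the raw counts of all 220 miRNAs. At 90d, 178 miRNAs had counts in both groups, 16 had 0 counts in all 6 libraries, 10 had counts only under -P and 16 only under +P. All 16 that were at 0 in both groups had counts at 30d. Of the one-sided miRNAs, 5 of the 10 and 6 of the 16 had at most 3 counts in all, the counting limit used here. With at least 10 counts, 3 were left that occurred only under -P (aqc-miR399, novel_73 and novel_298) and 5 only under +P (novel_155, novel_233, novel_244, novel_249 and novel_289).

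The counts were spread over libraries differently in the 2 directions, which was not tested. aqc-miR399, novel_73 and novel_298 were each counted in all 3 of the -P libraries. novel_298 had 4, 2 and 6 counts, which is at least 3.51-fold higher under -P by the pooled bound. On the +P side, novel_233 was the only one counted in all 3 libraries, at 1, 5 and 11 counts (at least 6.46-fold lower under -P). novel_289 had 13 and 15 counts in 90d +P A and B and 0 in C. The other 3 came from 1 library each: novel_155 with 23 counts and novel_244 with 15 in 90d +P C, and novel_249 with 13 in 90d +P B. Of all 16 miRNAs seen only under +P, 13 were counted in a single library, and 5 of the 10 seen only under -P. Without 90d +P C, 2 miRNAs with at least 10 counts were left on the +P side and 5 occurred on the -P side, and without 90d -P B there were 10 on the +P side. The filter on low counts left novel_298 and these 5 out of the main test. With no filter, the unadjusted p in edgeR was 0.0407 for novel_298, 0.0191 for novel_233, 0.0199 for novel_289, 0.0383 for novel_155, 0.0543 for novel_244 and 0.0690 for novel_249, and the smallest adjusted p among them was 0.486. novel_289, which was also tested without 90d +P C, then had an adjusted p of 0.171. Counting limits cover counting error in the group at 0 only, and the counts of the other group were taken as exact.

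**Figure D4:**
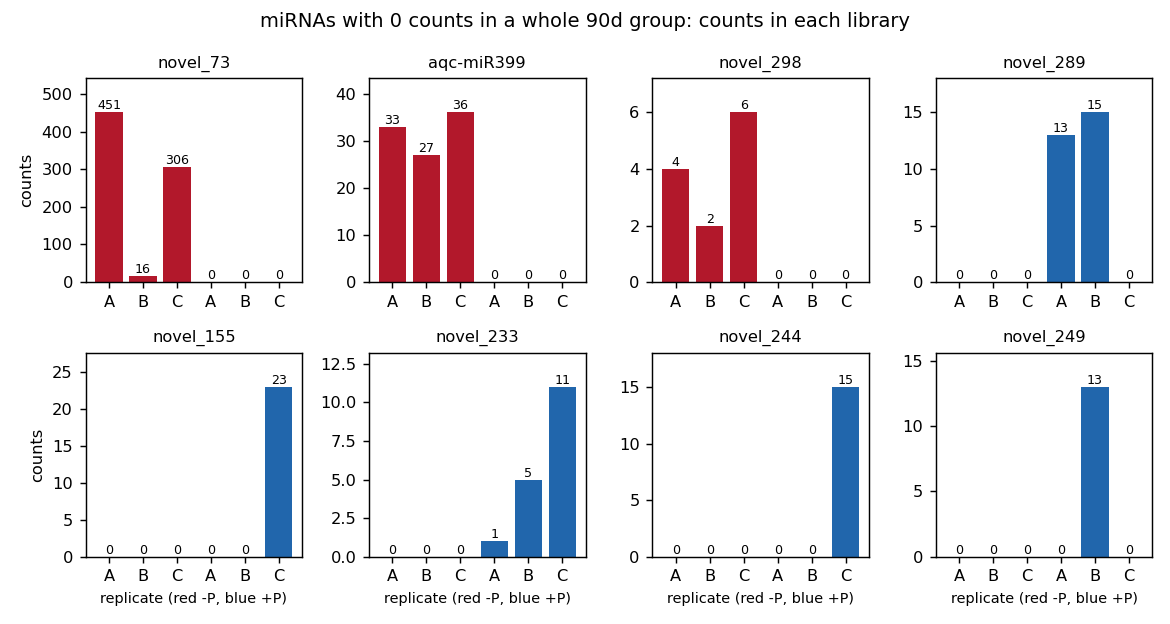
Raw counts (y axis, own scale in each panel) of the 8 miRNAs with 0 counts in a whole 90d group and at least 10 in the other, by replicate (x axis), red for -P and blue for +P. The 3 miRNAs seen only under -P have counts in all 3 red libraries, whereas novel_155, novel_244 and novel_249 each come from 1 blue library.

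The known miRNAs were even in direction. Of 16 tested, 8 had a positive log2 fold change, with a median of 0.05, beside 45 of 121 and a median of -0.46 for the predicted ones. Besides aqc-miR399, none passed the unadjusted rule in the main fit. With library totals and with limma, aqc-miR396a, aqc-miR396b and aqc-miR171a passed as higher, and aqc-miR396b also with no filter. aqc-miR398a passed as lower with DESeq2 (12 or 6 libraries), newer edgeR, the stricter filter and without 90d +P A or C. aqc-miR156b, outside the main test, passed as higher with no filter and without 90d -P B, alone or with 90d +P C. None of these passes had an adjusted p under 0.05. miR396, which in Arabidopsis restrains the GRF growth regulators, was the abundant family with the clearest separation. aqc-miR396b was at 29265, 37794 and 40924 TPM under -P and 16104, 16039 and 16468 TPM under +P, and aqc-miR396a at 5359, 4676 and 6827 TPM under -P and 2581, 3017 and 1956 TPM under +P. Neither overlapped between the groups, and their ratios of mean TPM were 2.22 and 2.23. In the main fit, with TMM scaling, the log2 fold changes were 0.75 (95% interval -0.54 to 2.05) and 0.77 (95% interval -0.57 to 2.12), each with an adjusted p of 0.658. With library totals alone they were 1.15 and 1.16, and with the stricter filter 0.45 and 0.43. How reads were divided between such near-identical family members is uncertain.

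miR171 targets GRAS-family regulators of meristems in Arabidopsis. aqc-miR171a had 28, 15 and 22 counts under -P and 7, 1 and 5 under +P, with no overlap (log2 fold change 1.63, SE 1.02, adjusted p = 0.607). The log2 fold change was 1.16 without 90d +P B and 1.98 without 90d +P A. aqc-miR171f, at 39.5, 85.8 and 62.6 TPM under -P and 10.8, 25.6 and 57.3 TPM under +P, overlapped in 1 library of each group. Its log2 fold change of 0.61 ranged from 0.09 without 90d +P A to 1.44 without 90d +P C. miR166, which restrains the HD-ZIP III regulators of leaf polarity, held most of all counts, and no member passed the unadjusted rule in the main fit. The log2 fold change was -0.49 (95% interval -1.46 to 0.47) for aqc-miR166e, -0.25 for aqc-miR166a and -0.07 for aqc-miR166c, and the sign of the last 2 turned with the scaling. That of aqc-miR166e was -0.08 without 90d -P C and -0.83 with the stricter filter. aqc-miR166a and aqc-miR166c were both highest in 90d -P B and 90d +P C, at 22534 and 25090 TPM for aqc-miR166a against 8109 to 15592 TPM in the other libraries. aqc-miR319, which targets TCP regulators of leaf shape, had a log2 fold change of -0.44 and aqc-miR159, which targets GAMYB-like factors, of 0.16. Over the 9 miRNAs of the leaf and meristem development list, 5 were positive and the median was 0.16, against -0.44 for all tested miRNAs. None passed in either direction in the main fit.

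Among the other nutrient families, the copper miRNAs depended strongly on 90d +P B, but only aqc-miR398b changed sign without it. miR398 lowers copper superoxide dismutases in Arabidopsis. aqc-miR398b was at 2626, 1641 and 5373 TPM under -P and 513, 21580 and 1165 TPM under +P, so 90d +P B was at 25.7 times the mean of the other +P libraries. Its log2 fold change of -1.55 (SE 1.19, adjusted p = 0.658) became 1.68 without 90d +P B. aqc-miR398a was at 183, 30.4 and 126 TPM under -P and 296, 1562 and 52.9 TPM under +P (log2 fold change -2.75, SE 1.37, adjusted p = 0.488), and at -1.29 without that library. The copper list thus gave 0 of 2 passing in either direction in the main fit, with a median of -2.15. aqc-miR395b, of the sulphate family, had 37, 100 and 23 counts under -P and 14, 41 and 2 under +P. Its groups overlapped, and the log2 fold change was 1.12 (SE 1.11, adjusted p = 0.662). It was 0.26 without 90d -P B, 0.56 without 90d +P C and 1.81 without 90d +P B.

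Of the nitrogen list, the 3 miR169 members in the table (aqc-miR169a, aqc-miR169b and aqc-miR169c) had at most 5 counts in a library and were not tested. aqc-miR160b, of the auxin list, which targets auxin response factors, had a log2 fold change of 0.22 (95% interval -1.50 to 1.94). The phase change list had 4 members, of which 1 was tested. aqc-miR172a, which targets AP2-like flowering regulators, had at most 3 counts in each 90d library, too few for its log2 fold change of -0.74 (SE 1.61) to give a direction. aqc-miR156b, which targets the SPL regulators of the adult phase, had 3, 0 and 3 counts under -P and 0 in all +P libraries. Its pooled bound of 1.75-fold higher takes these few -P counts as exact, so it is not a firm lower limit. aqc-miR172b and aqc-miR535 had 0 counts in all 6 libraries. aqc-miR477e, of the defence list, had a mean of 19.6 TPM under -P (SD 3.78, n = 3) and 22.5 TPM under +P (SD 13.0, n = 3), and a log2 fold change of -0.55. The lists for the miRNA pathway (miR168 and miR403) and for flavonoid MYB genes (miR828 and miR858) had 0 members in the table.

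**Figure D5:**
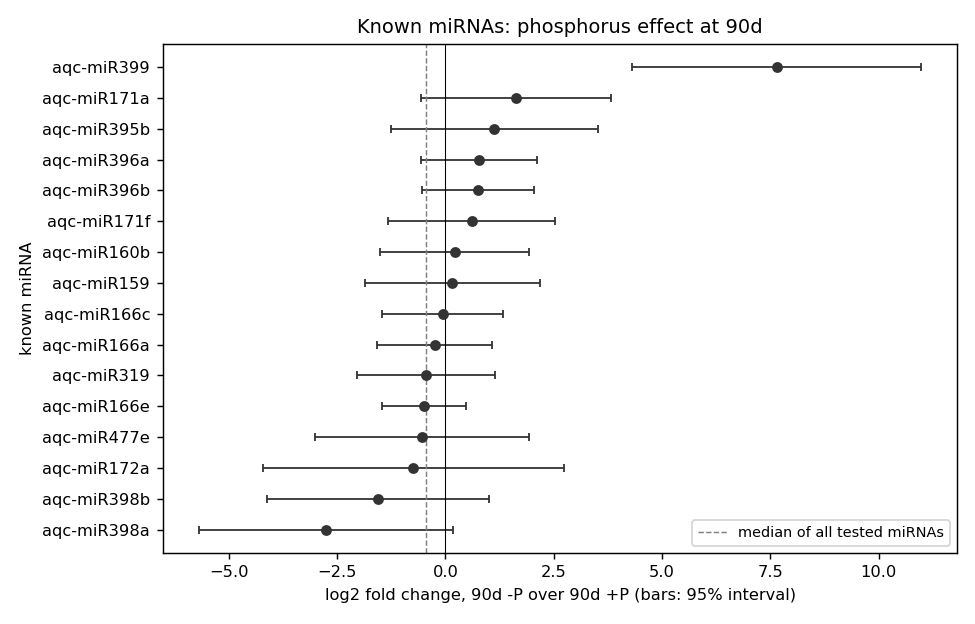
Log2 fold change of 90d -P over 90d +P (x axis) for the 16 tested known miRNAs (y axis), with bars for the 95% interval and a dashed line at the median of all tested miRNAs, -0.44. aqc-miR399 stands alone with an interval of 4.31 to 10.99, which depends on the fit because its +P counts are 0, and each of the others has an interval that includes 0.

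The 5 most abundant predicted miRNAs were novel_2, novel_1, novel_3, novel_4 and novel_5. novel_4 was at 39598, 48380 and 52006 TPM under -P and 17526, 26667 and 15739 TPM under +P, with no overlap and a ratio of means of 2.34 (log2 fold change 0.86, 95% interval -0.56 to 2.28, adjusted p = 0.658). novel_2 was at 56429, 70515 and 61988 TPM under -P and 34183, 41250 and 116620 TPM under +P, and novel_3 at 38518, 46416 and 32424 TPM under -P and 35568, 29489 and 110443 TPM under +P. Both were highest in 90d +P C and overlapped between the groups, and the log2 fold change of novel_3 was -0.99 with that library and -0.07 without it. novel_1 and novel_5 also overlapped, with log2 fold changes of -0.50 and -0.15. The share of counts in predicted miRNAs was 28.4% ± 2.76 (SD, n = 3) under -P and 26.7% ± 10.4 (SD, n = 3) under +P, and an exact two-sided permutation test gave p = 0.8, where the smallest p that 3 libraries against 3 allow is 0.1.

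Whether the phosphorus effect at 90d differed from that at 30 days (30d) was tested by the interaction in the same edgeR model. The number of miRNAs with an adjusted p under 0.05 was 0 of 137 (0%), with a smallest adjusted p of 0.530, and also 0 with DESeq2 and limma, while 7 had an unadjusted p under 0.05 (5.11%). Among the 7 were aqc-miR399, novel_73, novel_269 and novel_94, with a more positive effect at 90d, and novel_105, with a more negative one. novel_18 and novel_83, named after their values were seen, completed the 7, also with a more negative effect at 90d. At 30d aqc-miR399 had 5, 15 and 3 counts under -P and 2, 3 and 10 under +P, so all 30d libraries held it and the groups overlapped. Its interaction was 6.52 on the log2 scale with an unadjusted p of 0.00387 and an adjusted p of 0.530 in edgeR. For novel_73 the 30d counts were 44, 25 and 94 under -P and 1, 21 and 3 under +P. novel_36 had 842, 206 and 2780 counts in 30d -P against 223, 67 and 31 in 30d +P, and novel_61 had 71, 275 and 78 against 30, 36 and 31. After TMM scaling these 2 miRNAs were higher without overlap at both times, and 0 miRNAs were without overlap in opposite directions. In TPM the 30d groups of novel_36 overlapped, with 30d -P B below 30d +P A. The log2 fold changes of novel_36 were 3.80 at 30d and 7.40 at 90d, those of novel_61 were 2.35 and 3.85, and neither difference passed the test of the interaction (adjusted p = 0.620 and 0.717 in edgeR).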

How the data were processed

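The authors sequenced small RNA from leaves with a kit that ligates adaptors to both ends and adds no molecular identifiers, removed low-quality reads and other RNA classes, and predicted miRNAs from hairpins with miREvo and mirdeep2. The submitters' processing notes name Bowtie and DESeq2. For this table, no source used here gives the genome build or miRBase release. The authors deposited raw counts and TPM per library, and group means of counts as a further signal column, which was not used. TPM equalled counts over the library total, with no length term. Per-sample columns left out numbered 0.

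Counts were tested with edgeR 4.0.16 (older quasi-likelihood method, TMM, R 4.3.3) in 1 model of 4 groups over 12 libraries, with the filterByExpr threshold set at 10 counts. This kept 137 miRNAs (16 known, 121 predicted), which held 99.99% of the 90d counts. Adjusted p is Benjamini-Hochberg over these 137. The script was tested on simulated data, with pass criteria set only at a spread smaller than that of these data. The check therefore gives no measure of power here. Standard errors are the log2 fold change divided by the root of F, and intervals are at 95%. For a group at 0 counts, a bound was taken from 3 counts over its pooled total (0.793 TPM for -P, 0.904 TPM for +P), and covers counting error of that group only. The level of the other group was taken as observed, so bounds that rest on few counts are not firm lower limits. At 90d, same-letter replicates had deviations that correlated at 0.291, -0.231 and -0.145, so letters were not taken to pair libraries. At 30d, whose libraries enter the model and the interaction, they correlated at 0.449, 0.228 and 0.237, each above 0.1, and the fit with the letter as a block is given as an alternative. Alternatives were other scalings and filters, DESeq2 1.42.0, limma 3.58.1, the newer edgeR method, a replicate block and leaving out libraries.

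Named were every known miRNA, those of the unadjusted rule, one-sided miRNAs with at least 10 counts, those the study names at 90d, the 5 most abundant predicted miRNAs, and the 5 largest changes each way among other predicted miRNAs without overlap. The comparison, lists, rules and the older edgeR method were chosen with earlier results of these data known.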

Additional observations from a re-analysis of the deposited data

How the results depend on the processing

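The number of miRNAs with an adjusted p under 0.05 was 5 with RLE size factors, library totals, TMMwsp or no filter, 8 with DESeq2 on 12 libraries, 9 for DESeq2 fitted to 90d only and for newer edgeR, 6 with limma, and 0 with the stricter filter or edgeR on 6 libraries, and the replicate block gave 0. Wherever it was 3 or more, the main 3 calls were among them. Leaving out 1 library gave 0 to 4. By the unadjusted rule, DESeq2 passed 20 miRNAs (12 libraries) or 23 (6 libraries), edgeR limited to 90d or in its newer form passed 21, and leaving out 1 library gave 6 to 17. The replicate block gave 12 (7 higher, 5 lower), the stricter filter 5 higher and 8 lower, and no filter 9 and 4. The lower miRNAs without overlap numbered 9 with library totals. At a minimum of 5 counts, 5 miRNAs occurred only under -P and 8 only under +P, and at 20 counts 2 occurred only under +P. Leaving out 1 library gave 2 to 5 and 2 to 10 at a minimum of 10. The interaction gave 0 adjusted calls in every alternative with all 4 groups, the replicate block included (smallest adjusted p 0.575). The causes of these moves were not tested. Among uncalled miRNAs near 0, signs turned. With library totals, log2 fold changes were 0.17 for aqc-miR166a, 0.32 for aqc-miR166c and 0.25 for novel_5. No filter gave 0.19, 0.36, 0.34, 0.0093 (aqc-miR319) and 0.010 (novel_2). limma gave 0.27 for aqc-miR166a, 0.41 for aqc-miR166c, 0.28 for novel_5 and aqc-miR398b, 0.19 for novel_2 and 0.0096 for aqc-miR477e. aqc-miR166c was at 0.016 with RLE or DESeq2 on 12 libraries, 0.033 with DESeq2 on 6 libraries, which gave novel_5 0.0019, and 0.046 with the block, which gave aqc-miR398b 0.35. aqc-miR159 was at -0.060 with edgeR on 6 libraries and aqc-miR160b at -0.027 with the stricter filter. Without both 90d -P B and 90d +P C, aqc-miR166a was at 0.21, aqc-miR166c at 0.18, aqc-miR395b at -0.063 and novel_2 at 0.33. Leaving out 1 library gave -0.41 to 1.18 for aqc-miR159, -0.11 to 0.52 for aqc-miR160b, -0.82 to 0.56 for aqc-miR166a, -0.64 to 0.63 for aqc-miR166c, -0.94 to 0.12 for aqc-miR319, -2.10 to 1.68 for aqc-miR398b, -0.83 to 0.40 for novel_2 and -0.41 to 0.27 for novel_5. With 3 libraries a group and a median SE of 1.02, most log2 fold changes near 1 could not be told from replicate spread.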
